A study of Mus musculus with 4 samples.

Results

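The 43 genes described here code for the machinery that detects and repairs damaged DNA: 10 checkpoint genes, 3 genes of the break-sensing MRN complex, 13 of homologous recombination, 7 of the Fanconi anaemia pathway, 3 of mismatch repair, 4 of end joining and 3 of single-strand break repair. They were measured in mouse embryonic fibroblasts, cells grown from the connective tissue of embryos, which stop dividing after some passages in culture. Probes were taken where the array's spot files pair them with a mouse RefSeq transcript of a member, which gave 106 of 31089 named probes and 42 of the 43 genes, among 17466 named genes in all. The probes carried no RefSeq transcript of Fancb, so this gene has no value. Of the 42 genes, 4 had 1 probe, 12 had 2 probes and 26 had 3 probes.

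Passage 2 cells, which were growing, were compared with passage 7 cells, which were entering replicative senescence, a permanent exit from the cell cycle. Genotype, strain and embryo age are not given in the sources used here, and no agent is named for either group. Per the labels' protocols, 3 independent cultures were passaged every 3 to 4 days, and RNA of the cultures was pooled before the measurement. Both arrays of a passage may thus be repeats of 1 pool, and every p-value below then measures only the spread between arrays. In such bulk RNA, fewer cells of a type and less RNA per cell cannot be told apart.

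Damaged DNA is sensed by the kinases ATM, at breaks through both strands, and ATR, at stalled replication forks, and both signal to the checkpoint kinases CHEK1 and CHEK2 to delay the cell cycle. Homologous recombination copies the intact sister chromatid and so works after replication, with BRCA1 and BRCA2 acting early in the exchange of strands, and the Fanconi anaemia proteins open crosslinks that block forks. End joining ligates broken ends without a template at any stage of the cycle, and mismatch repair corrects errors left by the polymerases. Many recombination and fork genes are transcribed mainly in cycling cells, under E2F factors.

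The 4 arrays shared a slide and a scan, but each passage had slide positions of its own, and a position effect cannot be told apart from passage. The array at passage 7, replicate 2 was the dimmest: its 75th percentile of signal was 402 intensity units against 964 to 1404 on the others, and 65.8% of its spots were well above background against 70.6% to 72.7%. Levels below are log2 signal minus the log2 of that percentile on the same array, so 0 is the 75th percentile and 1 unit is 2-fold. The typical SD of a gene between arrays was 0.34 at passage 2 and 0.19 at passage 7. Of 10 fibroblast markers, 9 had a probe and all 9 were well above background on every array, from Pdgfra at the bottom to S100a4 at the top. Their summed level was 543 and 442 times the 75th percentile signal at passage 2 and 706 and 1048 times at passage 7. This sum is carried by the brightest markers, and single markers went the other way: Pdgfra read 0.23 and 0.65 against -2.31 and -1.90, and Col1a2 5.33 and 5.57 against 4.61 and 4.82. Markers of other cells were far dimmer, and the sums of 4 of the 5 lists did not overlap between passages. The summed level of 5 macrophage markers was 1.76 and 1.69 at passage 2 and 0.75 and 0.94 at passage 7, with Ptprc not well above background on any array. Csf1r, the brightest of them, changed by -1.26 on the log2 scale, Adgre1 by -2.15 and Cd14 by -0.02. That of 6 epithelial markers went from 1.18 and 1.03 to 0.26 and 0.39, where Krt5 was higher by 0.35 and the others were lower. Trophoblast markers went from 0.48 and 0.34 to 1.09 and 1.22. Prl2c2 and Prl3d1 were higher by 3.02 and 2.02, and Hand1 and Ascl2 by less. Tpbpa changed by -0.26, and Gcm1 was not well above background on any array. Endothelial markers went from 0.50 and 0.49 to 0.75 and 0.73, where Emcn was higher by 2.06 but Tek changed by -0.91 and Cdh5 by -0.71. The 3 erythroid markers overlapped, at 0.44 and 0.16 against 0.27 and 0.53. The part of these cells in the results below was not tested.

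Repair genes were lower at passage 7 in several pathways, with 9 of 13 homologous recombination genes, 5 of 10 checkpoint genes and 3 of 6 Fanconi genes called lower and 0 of 4 end joining genes called in either direction. Calls needed a limma adjusted p under 0.05 together with a 2-fold difference or more. All 42 genes passed the filter on dim probes and were tested among 13811 genes. Of these 42, 19 fell and 0 rose, against 1305 genes lower (9.45%) and 1385 higher (10.0%) in the background of all genes tested. At an unadjusted p under 0.05, 27 of the 42 were lower and 2 higher, against 17.4% and 24.2% of all genes, the shares against which the unadjusted counts below are to be read. With the adjusted p alone and no minimum fold, 20 were lower and 1 higher, against 11.9% and 13.4% of all genes. The median log2 change of the 42 was -0.97, which is -1.17 relative to the median of all genes (0.20), and 37 of the 42 lay below that median. On 32 genes both passage 7 arrays read below both passage 2 arrays, and on 4 both read above, against 27.8% and 40.6% of all genes.

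The 19 that fell were well above background on all 4 arrays, and 11 of them stayed past both limits whichever single array was left out. Of the 19, 12 kept the call without passage 7, replicate 1 and 12 without passage 7, replicate 2, while 18 kept it without passage 2, replicate 1 and 15 without passage 2, replicate 2. The 8 genes that lost a call in one of these fits were Tipin, Mdc1, Rad54b, Brca2, Palb2, Xrcc2, Mre11a and Parp1, and all 19 kept a negative change in each fit. With a normexp background correction, which adds a fitted background step to the raw median signal, limma called 0 of all genes tested, with 245 lower and 425 higher at an unadjusted p under 0.05. Under that correction 5 of the 19 turned positive, namely Rad54b, Palb2, Xrcc2, Mre11a and Mdc1.

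**Figure D1:**
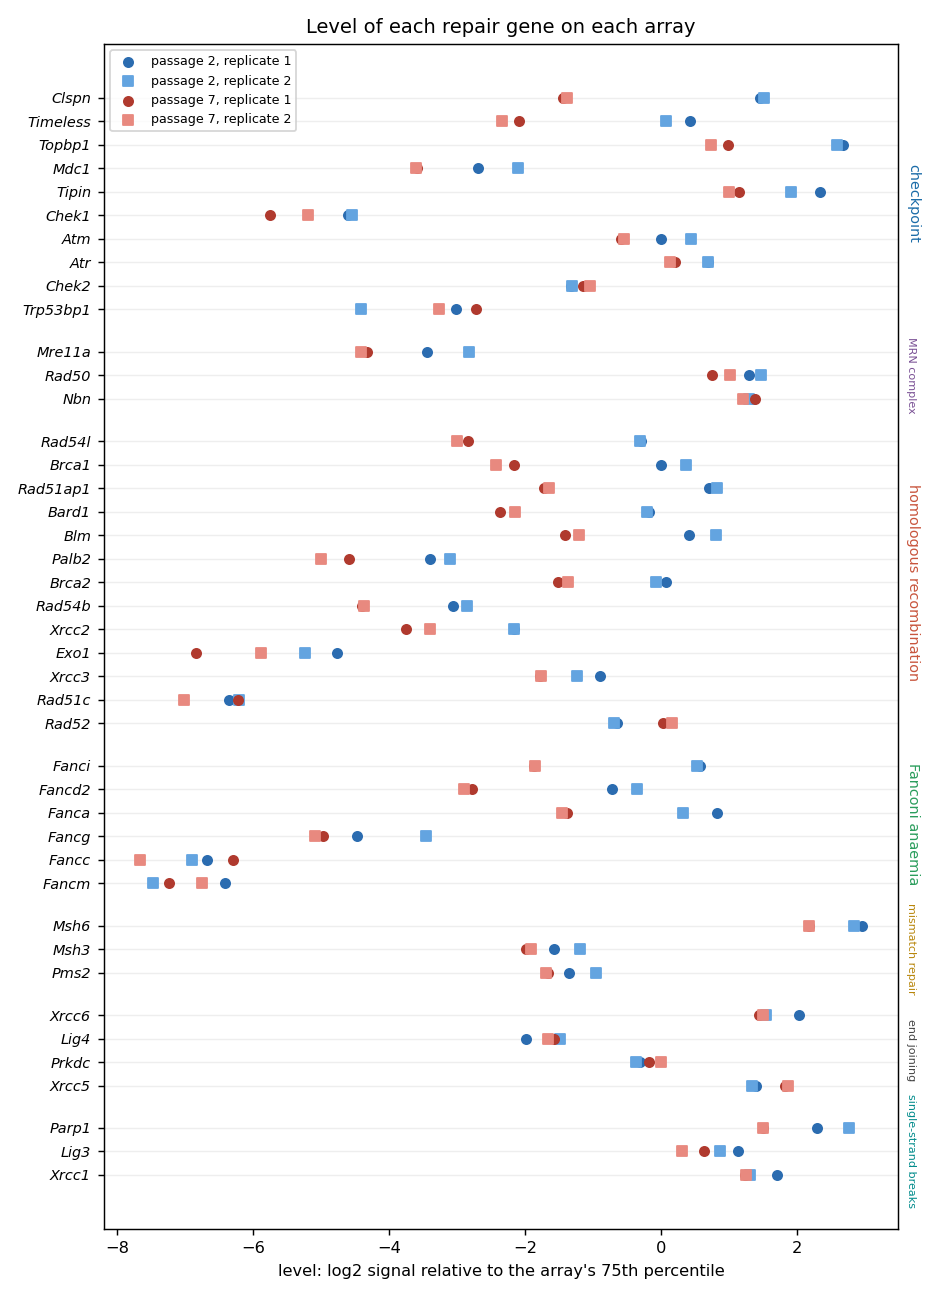
Each row is 1 repair gene, grouped by role, and each symbol is its level on 1 array (horizontal axis, log2 signal relative to the array's 75th percentile). Blue symbols are the 2 passage 2 arrays and red symbols the 2 passage 7 arrays; Clspn stands apart most, at 1.45 and 1.51 against -1.44 and -1.38, while the end joining gene Lig4 overlaps.

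Because many of these genes moved together, the 250 bases before their RefSeq starts (assembly GRCm38.p6) were searched on both strands for letters bound by cell cycle factors. The promoter table held 35 of the 43 members, 15 that fell and 20 others (Fancb included). E2F letters (TTTGGCGC, TTTGCCGC, TTTCGCGC or TTTCCCGC) stood before 4 of the 15 and before 4 of the 20, against 3.39% of genes tested (373 of 11005), 7.48% of genes called lower and 1.86% of all 32851 promoters of that length. In Msh3, 2 of these matches overlapped. The NF-Y box CCAAT stood before 8 of the 15 and 10 of the 20, against 40.2% of genes tested and 33.9% of all promoters. The CHR letters TTTGAA stood before 1 of the 15 (Bard1) and 0 of the 20, against 13.5% of genes tested and 16.0% of all promoters. With a window of 100 bases the counts among the 15 were 1 for E2F, 7 for CCAAT and 0 for CHR letters. Among the 20 others they were 2, 6 and 0, and the shares of genes tested were 1.53%, 25.4% and 4.35%. The E2F letters, in capitals, are shown for the 4 genes that fell and for Chek2 and Xrcc6, which hold them and did not fall, each 5′ to 3′ on the gene's strand.
Topbp1: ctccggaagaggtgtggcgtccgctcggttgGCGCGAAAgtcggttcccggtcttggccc
Brca2: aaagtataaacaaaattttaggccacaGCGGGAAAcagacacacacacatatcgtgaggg
Bard1: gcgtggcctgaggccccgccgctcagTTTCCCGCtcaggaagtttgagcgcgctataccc
Mdc1: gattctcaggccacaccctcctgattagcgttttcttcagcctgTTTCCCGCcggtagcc
Chek2: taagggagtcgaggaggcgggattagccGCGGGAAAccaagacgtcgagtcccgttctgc
Xrcc6: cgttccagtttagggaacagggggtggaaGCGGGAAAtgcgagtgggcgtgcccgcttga
These stretches lie at chr9:103305167-103305226 (plus strand), chr5:150522426-150522485 (plus), chr1:71103148-71103207 (minus), chr17:35841438-35841497 (plus), chr5:110839803-110839862 (plus) and chr15:82016294-82016353 (plus), in that order. Brca2, Chek2 and Xrcc6 hold the same 8 letters, GCGGGAAA, and Bard1 and Mdc1 hold them on the other strand, as TTTCCCGC. A match is a description of the letters and not a measured site.

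Clspn, Brca1 and Fanca, which also fell, held no E2F letters in this window but held CCAAT boxes, shown in capitals as CCAAT or, on the other strand, ATTGG.
Clspn: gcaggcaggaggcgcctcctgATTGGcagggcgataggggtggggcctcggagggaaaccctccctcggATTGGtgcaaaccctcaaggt
Fanca: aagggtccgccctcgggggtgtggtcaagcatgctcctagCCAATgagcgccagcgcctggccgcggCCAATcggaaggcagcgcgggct
Brca1: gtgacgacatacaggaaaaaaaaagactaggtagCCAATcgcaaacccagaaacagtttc
They lie at chr4:126556890-126556979 (plus strand), chr8:123318577-123318666 (minus) and chr11:101552016-101552075 (minus).

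In the checkpoint group, 5 of 10 genes fell and 0 rose, with 8 lower and 0 higher at an unadjusted p under 0.05 and a median change of -1.18 relative to all genes. The falls were in genes for proteins that carry the ATR signal at the fork and for 1 mediator at breaks. The genes of the kinases themselves did not pass the limma test, with Chek1 close to the threshold (adjusted p 0.063). Clspn codes for claspin, the adaptor that brings CHEK1 to ATR. Its levels were 1.45 and 1.51 at passage 2 and -1.44 and -1.38 at passage 7, a fall of 7.40-fold (log2 change -2.89 ± 0.17 SE, adjusted p 0.0050). The arrays of a passage lay within 0.1 of each other here, and the other probes changed by -3.06 and -2.99. Timeless, which with Tipin holds the polymerase and helicase together at the fork, read 0.42 and 0.07 at passage 2 and -2.08 and -2.34 at passage 7. Its change was -2.46 ± 0.22 (adjusted p 0.0065), and its other probes gave -2.69 and -2.31. Its partner Tipin moved less, from 2.34 and 1.91 to 1.15 and 0.99 (change -1.05 ± 0.23, adjusted p 0.034), and the adjusted p ran from 0.044 to 0.18 with 1 array left out.

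Topbp1, the activator of ATR, whose E2F letters are printed above, read 2.66 and 2.58 at passage 2 and 0.98 and 0.73 at passage 7. The change was -1.77 ± 0.19 (adjusted p 0.0089), with -1.72 on both of its other probes. Mdc1, the scaffold that binds marked chromatin beside a break, was dimmer, at -2.70 and -2.11 against -3.59 and -3.61. It fell by 1.20 ± 0.26 (adjusted p 0.034), past the limit by a small margin, and lost the call without passage 2, replicate 2 and without either passage 7 array (highest adjusted p 0.13).

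The 4 checkpoint kinases gave smaller differences. Chek1 read -4.60 and -4.54 at passage 2 and -5.75 and -5.19 at passage 7, which did not overlap, but the change of -0.90 ± 0.25 missed the threshold (adjusted p 0.063). Its other probe was not well above background on either passage 7 array and was at least 2.56-fold lower there. That probe passed the filter only through passage 2, so its limma adjusted p (0.037 among all probes) is not support for a fall. Chek1 passed both limits after quantile normalisation, with a change of -1.14, and after median scaling, with -1.07. With its probes averaged, Chek1 also passed (change -1.96, adjusted p 0.032), but this average rests in part on the dim probe. Its change turned to 1.36 with the normexp correction. Atm changed by -0.79 ± 0.22 (adjusted p 0.064) with all 4 arrays and by -1.01 without passage 2, replicate 1, where it passed (adjusted p 0.037), but by -0.57 without passage 2, replicate 2 (adjusted p 0.11). Atr, at 0.68 and 0.69 against 0.21 and 0.13, changed by -0.51 ± 0.17 (adjusted p 0.093). Chek2, which holds E2F letters, was nearly level, at -1.33 and -1.32 against -1.15 and -1.05 (change 0.22 ± 0.17, adjusted p 0.39). Trp53bp1, which protects broken ends from resection, had the widest spread of the group. It read -3.01 and -4.41 at passage 2 and -2.71 and -3.27 at passage 7, so the passages overlapped and the change of 0.71 ± 0.52 did not pass (adjusted p 0.36).

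The MRN complex binds broken ends and starts their resection, and its 3 subunits were not measured alike. Mre11a, the nuclease, read -3.44 and -2.83 at passage 2 and -4.32 and -4.42 at passage 7, a fall of 1.23 ± 0.27 (adjusted p 0.034) from its 1 probe. It kept the call without passage 2, replicate 1 but lost it without any other single array (highest adjusted p 0.14), and its change was 0.83 with the normexp correction. Rad50, the long coiled-coil subunit, was bright and changed by -0.51 ± 0.20 (adjusted p 0.13). Nbn, which links the complex to ATM, stood at 1.35 and 1.28 against 1.39 and 1.20 and changed by -0.02 ± 0.18 (adjusted p 0.94). The means of the passages lay within 0.1 of each other on both of its probes.

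Homologous recombination had the most calls: 9 of 13 genes fell and 0 rose, with 11 lower and 1 higher at an unadjusted p under 0.05, and the median change relative to all genes was -1.64. Rad54l, a motor protein of strand invasion, fell by 6.10-fold, from -0.30 and -0.32 to -2.84 and -3.00 (change -2.61 ± 0.18, adjusted p 0.0051). The other probes of Rad54l gave -2.57 and -2.53, so all 3 were within 0.1 of each other. Brca1 and its partner Bard1, which together form a ubiquitin ligase that favours resection, moved alike. Brca1 went from -0.01 and 0.37 to -2.16 and -2.43 (change -2.47 ± 0.23, adjusted p 0.0066), with -2.83 and -2.70 on its other probes. Bard1 went from -0.18 and -0.21 to -2.37 and -2.15 (change -2.07 ± 0.19, adjusted p 0.0065). Its other probe was dimmer and did not move, at -4.13 and -4.71 against -4.73 and -3.96 (change 0.07, adjusted p 0.90 among all probes). The 2 probes disagree, and their average fell short of 2-fold.

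Palb2 couples BRCA1 to BRCA2. It was read by 1 probe, at -3.39 and -3.11 at passage 2 against -4.59 and -5.00, a fall of 1.54 ± 0.24 (adjusted p 0.016). Brca2, a mediator of strand exchange that holds E2F letters before its start, went from 0.08 and -0.08 to -1.52 and -1.37 (change -1.44 ± 0.19, adjusted p 0.012), with -1.70 on its other probe. The passages did not overlap for these genes, yet Palb2 lost its call without passage 2, replicate 2 or passage 7, replicate 2 (adjusted p up to 0.078). Brca2 missed the threshold when a passage 7 array was left out (adjusted p up to 0.063). Rad51ap1, a cofactor in strand invasion, fell by 2.46 ± 0.18 (adjusted p 0.0051), from 0.71 and 0.82 to -1.73 and -1.65. Blm, the helicase that dissolves crossed strands, read 0.41 and 0.81 against -1.42 and -1.20 (change -1.92 ± 0.23, adjusted p 0.010). Each of these was matched by its other probes, which gave -2.61 and -2.53 for Rad51ap1 and -2.05 and -1.92 for Blm.

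Rad54b, the paralog of Rad54l, fell less, from -3.06 and -2.85 to -4.40 and -4.36 (change -1.42 ± 0.19, adjusted p 0.012; up to 0.061 without either passage 7 array). Xrcc2, an accessory factor of strand exchange, read -2.16 and -2.16 against -3.75 and -3.40 (change -1.42 ± 0.21, adjusted p 0.015; 0.078 without passage 7, replicate 1). Its other probes were not well above background at passage 7 and were at least 5.46-fold and at least 5.37-fold lower there, a larger fall than the brightest probe gave. Those probes passed the filter only through passage 2, so they are not support for a fall. Under the normexp correction the changes were 0.54 for Rad54b and 0.24 for Xrcc2, and 0.78 for Palb2.

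The 4 recombination genes that did not pass differed among themselves. Exo1, a resection nuclease that also serves mismatch repair, read -4.76 and -5.24 against -6.84 and -5.88 (change -1.36 ± 0.39, adjusted p 0.065). It was not well above background on either passage 7 array and passed the filter through passage 2 alone. With a further probe, also dim at passage 7, averaged in, Exo1 was called lower (change -2.04, adjusted p 0.026). It passed without passage 7, replicate 2 (adjusted p 0.037) but in no other fit that left out 1 array (adjusted p up to 0.19), and it passed after quantile normalisation (change -1.64) and after median scaling (change -1.53). Xrcc3, another accessory factor of strand exchange, read -0.90 and -1.23 against -1.78 and -1.76, without overlap (change -0.70 ± 0.20, adjusted p 0.066). Rad51c, the partner of Xrcc3, was near the lower limit of detection, at -6.36 and -6.20 against -6.22 and -7.01, and overlapped between passages. Its change was -0.34 ± 0.31 (adjusted p 0.46). The other probes of Rad51c were not well above background on either passage 7 array and set no lower bound on a fall. With probes averaged, which takes in such a dim probe, Rad51c was called lower (change -1.11, adjusted p 0.016). Rad52, which anneals single strands, was the 1 member that was higher at an adjusted p under 0.05. It read -0.65 and -0.69 against 0.02 and 0.16. Its change of 0.77 ± 0.18 (adjusted p 0.041) is 1.70-fold and so short of the 2-fold limit, and with 1 array left out the adjusted p ran from 0.058 to 0.29.

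In the Fanconi anaemia pathway, 3 of the 6 genes measured fell and 0 rose (4 lower and 0 higher at an unadjusted p under 0.05), with a median change of -1.73 relative to all genes. The 3 code for both partners of the central clamp, FANCD2 and FANCI, and for a core subunit of the ligase that modifies it. Fanci read 0.57 and 0.52 at passage 2 and -1.87 and -1.86 at passage 7, a fall of 5.32-fold (change -2.41 ± 0.17, adjusted p 0.0051). Fancd2 went from -0.72 and -0.36 to -2.78 and -2.89 (change -2.29 ± 0.21, adjusted p 0.0066). Fanca, whose CCAAT boxes are printed above, went from 0.82 and 0.32 to -1.39 and -1.46 (change -2.00 ± 0.24, adjusted p 0.010). These 3 were called in every fit that left out 1 array, and the other probes of Fanci and Fancd2 gave -2.31 and -2.42.

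The other 3 Fanconi genes were dim. Fancg, a ligase core subunit, read -4.47 and -3.46 against -4.97 and -5.08, with -1.41 and -1.29 on its other probes, and its change of -1.06 ± 0.37 did not pass (adjusted p 0.10). Without passage 2, replicate 1 the change was -1.57 and passed (adjusted p 0.026), and without passage 2, replicate 2 it was -0.56 (adjusted p 0.13). Fancc, a further core subunit, read -6.67 and -6.90 against -6.29 and -7.66. Fancm, the translocase that anchors the core to DNA, read -6.41 and -7.47 against -7.24 and -6.75 and was not well above background at passage 7. Both overlapped between passages, and a difference was not detectable at these signals.

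Mismatch repair had 0 of 3 genes called in either direction by limma, with 2 lower and 0 higher at an unadjusted p under 0.05, and the median, relative to all genes, was -0.77. On all 3 genes the passage 7 arrays lay below the passage 2 arrays. Msh6, which recognises single mispairs, was the brightest, at 2.95 and 2.83 against 2.18 and 2.17. It passed the adjusted p (0.046) with a change of -0.72 ± 0.18, which is 1.65-fold and short of the limit. Its other probes split: 1 gave -0.69 and the dimmest, at -2.47 and -2.21 against -2.16 and -2.01, gave 0.26. Msh3, which recognises larger loops, changed by -0.57 ± 0.22 (adjusted p 0.12), from -1.58 and -1.19 to -1.99 and -1.91. Pms2, the nicking subunit that follows recognition, changed by -0.51 ± 0.22 (adjusted p 0.15), from -1.36 and -0.97 to -1.66 and -1.69. Its other probes gave -0.69 and, on a probe not well above background at passage 7, at least 1.87-fold lower, and the mean of its probes changed by -0.85 (adjusted p 0.031), short of 2-fold.

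Of the 4 end joining genes limma called 0 in either direction, a count that the background shares would also give in so short a list, with 0 lower and 1 higher at an unadjusted p under 0.05, and the median change was -0.02 relative to all genes. Xrcc5 and Xrcc6 code for the ring, known as Ku, that slides onto broken ends. Xrcc5 read 1.39 and 1.33 at passage 2 and 1.82 and 1.87 at passage 7 (change 0.48 ± 0.17, adjusted p 0.11), with 0.34 and 0.18 on its other probes. Xrcc6, which carries E2F letters before its start, read 2.02 and 1.55 against 1.44 and 1.50 (change -0.31 ± 0.23, adjusted p 0.36). The 2 Ku subunits thus had opposite signs, neither of them past the threshold. Prkdc, the kinase recruited by Ku, read -0.31 and -0.38 against -0.18 and 0.00 (change 0.25 ± 0.18, adjusted p 0.35). Lig4, the ligase that seals the ends, overlapped between passages, at -1.98 and -1.48 against -1.58 and -1.66 (change 0.11 ± 0.24, adjusted p 0.74).

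Of the 3 genes of single-strand break repair, 1 fell and 0 rose. Parp1, the sensor that builds poly(ADP-ribose) at nicks, read 2.29 and 2.76 at passage 2 and 1.49 on both passage 7 arrays. Its change of -1.04 ± 0.23 (adjusted p 0.037) is 2.05-fold, and its other probes gave -1.08 and -1.07. It lost the call without passage 2, replicate 2 and without either passage 7 array (highest adjusted p 0.16). The scaffold Xrcc1 changed by -0.26 ± 0.21 (adjusted p 0.41) and its partner ligase Lig3 by -0.53 ± 0.22 (adjusted p 0.14), with -0.63 and -0.06 on the other probes of Lig3.

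**Figure D2:**
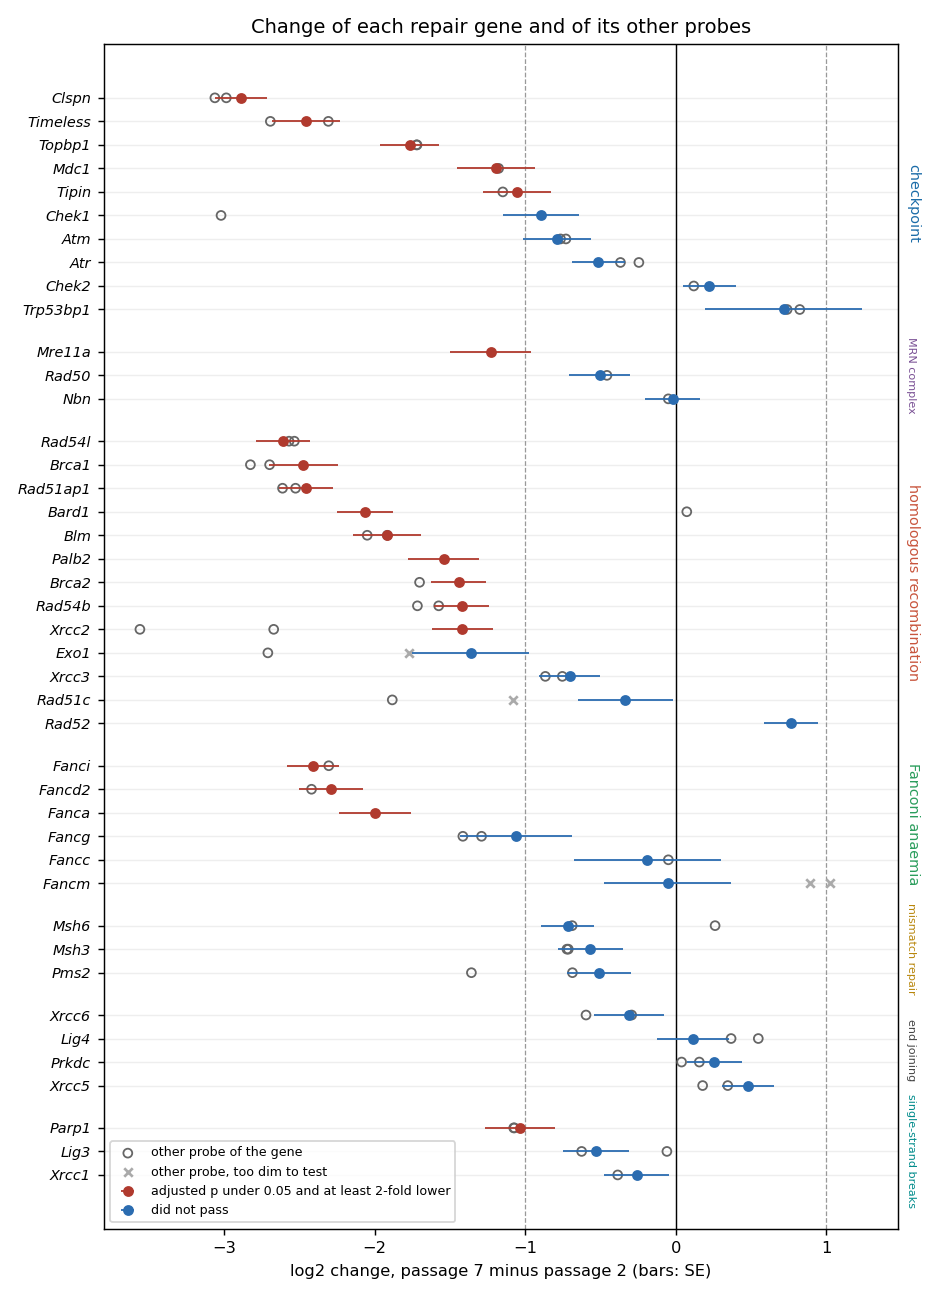
Each row is 1 repair gene; filled circles give its log2 change from passage 2 to passage 7 (horizontal axis) with bars of 1 SE, red where the gene was called lower and blue where it did not pass. Open circles are the gene's other probes, grey crosses are probes too dim to test, and dashed lines mark 2-fold; the red points run from -2.89 for Clspn to -1.04 for Parp1.

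Probes of 1 gene repeat the reading of its transcript and are not replicates of the condition. Over all members, 102 of the 106 probes passed the filter, and among them 46 were called lower and 0 higher, against 8.55% and 8.73% of 30796 probes. The 46 include probes of Chek1, Exo1, Rad51c and Xrcc2 that were not well above background on either passage 7 array. Those probes passed the filter only through passage 2, where they were high, so their calls are not support for a fall. Of the 19 genes that fell, 16 had other probes, 26 in all, and 25 of these were at least 2-fold lower. The 25 include the other probes of Xrcc2, which, as said, are not support for a fall. The exception was the dimmer probe of Bard1, which was well above background on all 4 arrays and changed by 0.07. Disagreement in the other direction, with a dimmer probe whose lower bound exceeded the fold of the brightest, was seen for Chek1, Xrcc2 and Pms2.

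The pathways can be set side by side on each array as the mean deviation of their genes from each gene's mean over the 4 arrays, relative to the same for all genes. For homologous recombination it was 0.69 and 0.89 at passage 2 and -0.74 and -0.84 at passage 7. The Fanconi genes gave 0.69 and 0.77 against -0.56 and -0.89, and the checkpoint genes 0.57 and 0.62 against -0.50 and -0.69. Mismatch repair was closer to 0, at 0.17 and 0.55 against -0.30 and -0.42, and the MRN genes gave 0.15 and 0.55 against -0.28 and -0.42. In end joining the signs were mixed within each passage, at -0.07 and 0.06 against 0.05 and -0.03. The difference between pathways was not tested.

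**Figure D3:**
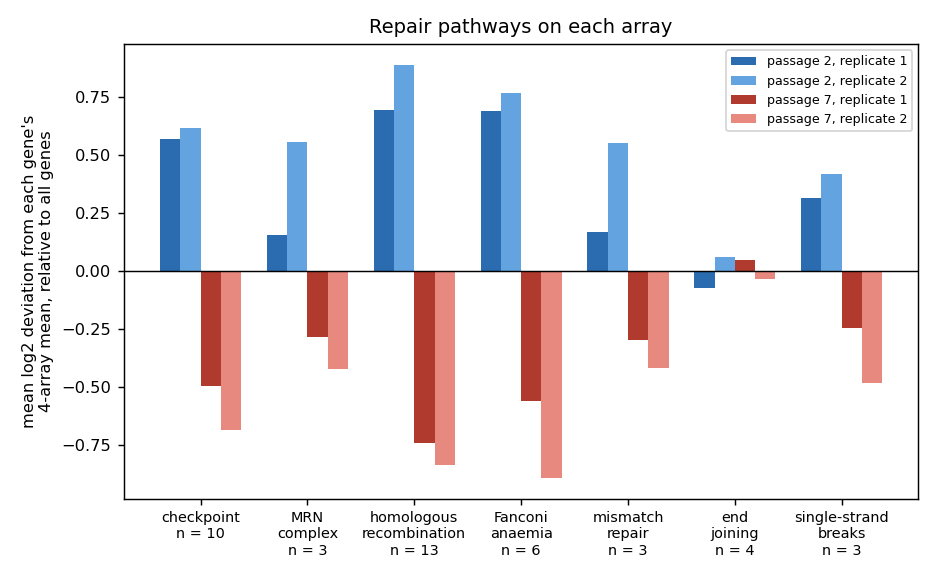
Bars give, for each repair pathway (horizontal axis, with the number of genes), the mean log2 deviation of its genes from their 4-array means relative to all genes (vertical axis), 1 bar an array. Bars of homologous recombination reach 0.89 and -0.84, while those of end joining stay between -0.07 and 0.06.

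A further 112 genes of the same and of neighbouring pathways were examined, of which 7 had no probe and 104 were tested. Of these, 22 fell and 4 rose, against 9.45% lower and 10.0% higher of all genes. Their median change relative to all genes was -0.22, against -1.17 for the members. In homologous recombination, 7 of 17 other genes fell and 1 rose. Polq, the polymerase of microhomology-mediated joining, fell by 2.58 ± 0.21 (adjusted p 0.0057). Mus81, a nuclease of branched DNA, rose by 1.11 ± 0.18 (adjusted p 0.018), from 1.62 and 1.47 to 2.61 and 2.70, but lost the call with quantile normalisation, median scaling and the authors' table and without passage 2, replicate 2 or either passage 7 array. Among 9 other Fanconi genes 4 fell and 0 rose, led by Brip1, a helicase partner of BRCA1 (-3.25 ± 0.21, adjusted p 0.0050), and Usp1, which takes ubiquitin off the FANCD2 clamp (-2.68 ± 0.25, adjusted p 0.0068). Among 13 genes listed as checkpoint clamp and adaptors 4 fell and 0 rose, among them the clamp subunit Hus1 (-1.73 ± 0.21, adjusted p 0.010) and Rif1, which acts with TRP53BP1 at broken ends (-1.19 ± 0.26, adjusted p 0.035). That list also holds the cell cycle regulators Wee1, which was among those that fell, and Cdc25a, which was not. Hus1, Polq, Brip1 and Usp1 were called whichever array was left out, while Rif1 was called in 1 of those 4 fits.

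The 7 other genes listed under end joining were not called by limma in either direction, against 9.45% lower and 10.0% higher of all genes. None of the 7 passed an unadjusted p under 0.05 (0 lower and 0 higher), and their median was 0.16 relative to all genes. Polq, which fell, serves joining by microhomology but was listed under homologous recombination.

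Repair of bases and of bulky lesions gave a mixed picture. The counts called are to be read against 9.45% lower and 10.0% higher of all genes. Of 20 genes of base excision and single-strand break repair 5 fell and 1 rose: Lig1, the ligase of replication and repair, fell by 2.08 ± 0.18 (adjusted p 0.0062) and the glycosylase Neil3 by 1.55 ± 0.33 (adjusted p 0.033), while the glycosylase Neil2 rose by 2.02 ± 0.26 (adjusted p 0.012), from -3.29 and -3.87 to -1.46 and -1.64. Nucleotide excision repair, which removes bulky lesions, had 0 of 20 genes lower and 1 higher (2 lower and 4 higher at an unadjusted p under 0.05, both under the shares of all genes). Their median change, set against that of all genes, was 0.19. That 1 gene was the nuclease Ercc5, at 1.79 and 1.52 against 2.91 and 2.80 (change 1.21 ± 0.20, adjusted p 0.018). Of 11 translesion genes 1 fell, near the share of all genes. It was the polymerase subunit Rev3l (-1.65 ± 0.18, adjusted p 0.0085). Of 3 direct reversal genes 1 rose, Mgmt, which strips alkyl groups from guanine, from 1.83 and 0.99 to 3.13 and 3.21 (change 1.76 ± 0.32, adjusted p 0.024). Lig1, Neil2 and Rev3l were called whichever array was left out; Ercc5 and Mgmt lost the call without either passage 7 array, Neil3 lost it without those or passage 2, replicate 2, and Ercc5 lost it with the authors' table.

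The falls of the repair genes ran beside a fall of the replication machinery on the same arrays. Of 43 replication genes 42 were tested, and 27 of them fell and 0 rose (36 lower and 1 higher at an unadjusted p under 0.05), with a median change of -1.48 relative to all genes. The polymerase subunits Pole2 (-3.00 ± 0.21, adjusted p 0.0051) and Pola1 (-2.66 ± 0.26, adjusted p 0.0070) changed most among these. The replication genes had a mean deviation of 0.72 and 0.78 at passage 2 and -0.67 and -0.83 at passage 7, close in size to homologous recombination. The part of this replication program in the fall of the repair genes was not tested.

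**Figure D4:**
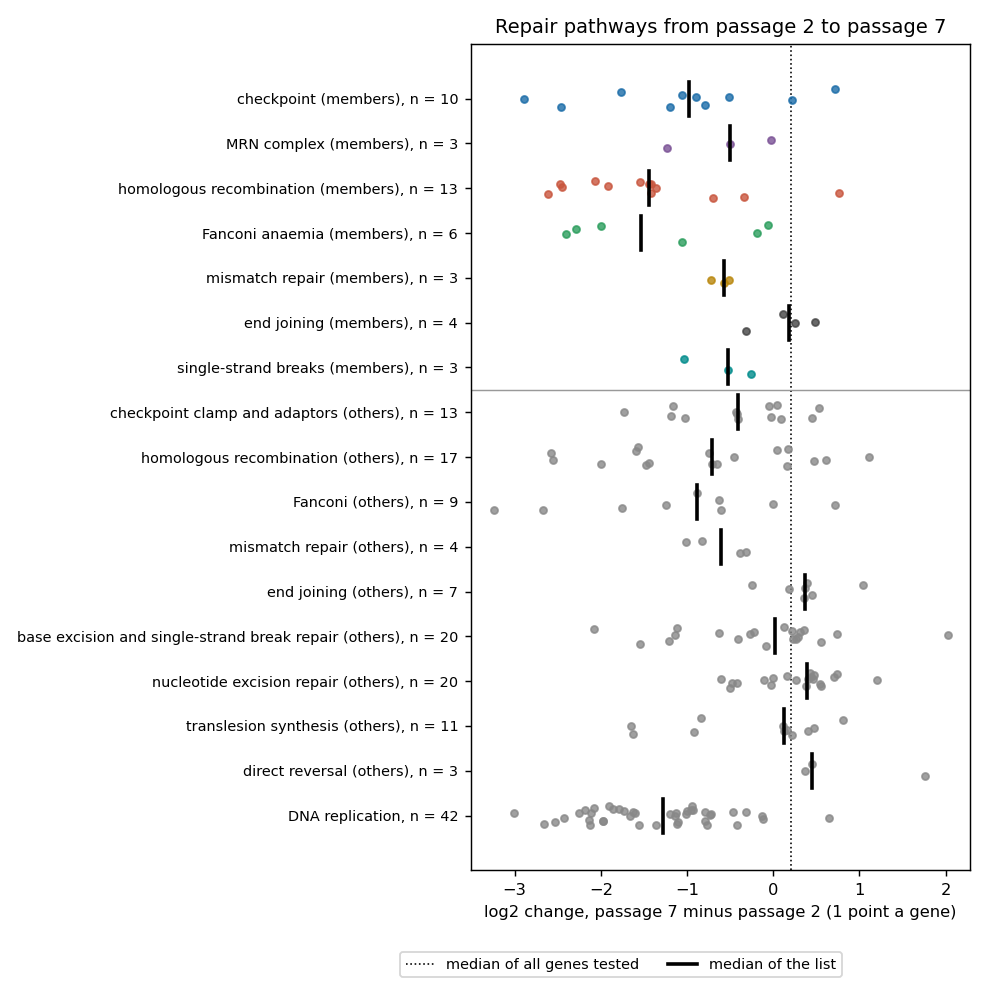
Each point is the log2 change of 1 gene from passage 2 to passage 7 (horizontal axis), in rows by pathway, with the members above the grey line and the other genes below it. Black bars are list medians and the dotted line the median of all genes tested (0.20); recombination, Fanconi and replication genes lie mostly to its left, and end joining and nucleotide excision repair genes around it.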

How the data were processed

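RNA labelled with Cy3 was read on 4 custom Agilent arrays (design build mm9), 2 per passage. Per the file headers, spots were read with Feature Extraction 10.5.1.1, and the deposited files give spot and background intensity, a background-subtracted processed intensity and flags. The authors' value table is on a log2 scale; its columns followed the log2 median intensity of their own arrays (r from 0.9986 to 1.00 across spots), with medians of 6.30, 6.30, 6.24 and 6.14, while how it was centred or background-corrected is unknown. The submitters' processing notes name limma and give no version.

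Members, lists and motifs were chosen with earlier results of these data known. Probes were named through RefSeq accessions (assembly GRCm38.p6): 31089 of 31850 probes with an accession matched 1 symbol. Log2 processed intensity minus each array's 75th percentile was used, with outlier spots left out (14 to 61 an array; no spot was saturated) and spots of a probe averaged. The probe with the highest mean stood for its gene, kept if measured on all arrays and well above background on both arrays of a passage. Limma 3.58.1 in R 4.3.3 (lmFit, eBayes, no covariate) tested 13811 genes, two-sided, with Benjamini-Hochberg adjustment, and another fit tested probes. A bound ("at least") sets the brighter passage's mean against the probe's signal on the dimmer arrays. That signal was raised to a floor, the lowest signal on the array that passed the background flag, where it lay under it. Some signals above the floor failed the flag, as Exo1 did at -6.84 and -5.88 at passage 7 (floors -7.13 and -6.00). The bounds thus hold only for this floor. The number of arrays limits the precision.

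Every member is named, and from each other list up to 2 largest rises and 2 largest falls among called genes, with Wee1 and Cdc25a named besides. Some genes that this rule names are not reported here. Alternatives were other scalings, the authors' table, normexp (offset 50, run on median intensity, with a later version that replaces marked backgrounds), filters, probe choice, variance model, threshold, promoter window, a replicate block, and each array left out in turn; a lone array is then assumed to vary like the other passage's.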

Additional observations from a re-analysis of the deposited data

How the results depend on the processing

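The count of 19 genes that fell was within 1.5 times of itself (15 to 22) under quantile normalisation, median scaling, the authors' table, other dim-probe filters, averaged probes and another variance model, and 0 genes rose in each; with no minimum fold 1 rose (Rad52). With normexp 0 fell and 0 of all genes were called; with marked backgrounds replaced, an alternative chosen after seeing the data, 12 fell and 1260 genes were called (61.0% higher). Leaving out 1 array gave 12 to 20 members and 1149 to 3457 of all genes; without a filter 1776 were called, against 2690 (51.5% higher) in the main analysis. The share of higher calls was 42.3% with quantile normalisation, 41.2% with median scaling and 36.2% with the authors' table. The members' median relative to all genes was -0.80 with the authors' table, -0.82 with normexp, -0.85 with backgrounds replaced, and -0.93 to -1.24 with 1 array left out. Replicate numbers do not pair the samples by the labels, and deviations of same-numbered arrays correlated at -0.17; with the number as a block, the pairing left 12 members and 1186 genes. With 100 promoter bases, E2F letters stood before 1 and CHR letters before 0 of the genes that fell, against 2 and 0 of the other members.

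Signs turned with normexp for Chek1 (1.36), Rad51c (1.89), Rad54b (0.54), Palb2 (0.78), Exo1 (1.49), Fancc (1.92), Fancg (1.09), Fancm (1.89), Msh3 (0.31), Pms2 (0.24), Xrcc2 (0.24), Mre11a (0.83) and Mdc1 (0.39). With backgrounds replaced they turned for Chek1 (0.26), Rad51c (0.71), Exo1 (0.34), Fancc (0.76), Fancg (0.0046), Fancm (0.72) and Nbn (0.038). With 1 array left out, the range crossed 0 for Rad51c (-0.73 to 0.056), Fancc (-0.88 to 0.50), Fancm (-0.58 to 0.47, with 0.19 between), Nbn (-0.11 to 0.069, with 0.011 between) and Lig4 (-0.14 to 0.36), and with median scaling for Lig4 (-0.055). The cause was not tested. The dimmest array, passage 7, replicate 2, had a median signal over background of 2.94 against 4.28 to 5.05 on the others, which limits what can be said of the dim members.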

Other observations

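Beside the RefSeq transcripts, the array carries custom probes to long noncoding RNAs named after a neighbouring repair gene. Of those named after Brca1, 2 probes were well above background on all 4 arrays. The brighter read -0.49 and -1.20 at passage 2 and -0.91 and 0.03 at passage 7 (change 0.40 ± 0.43, adjusted p 0.53 among all probes), and the dimmer changed the other way, by -0.42 ± 0.40 (adjusted p 0.48), where Brca1 itself fell by 2.47. Probes named after Xrcc2 that were above background on all 4 arrays changed by 1.17 and 1.37 (adjusted p 0.16 for both), against -1.42 for Xrcc2. The 4 probes named after Chek1 were not well above background on any array. A custom transcript named after Trp53bp1 was read by 2 probes, at -0.64 and -0.45 (adjusted p 0.10 and 0.17), against 0.71 for Trp53bp1.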
